A study of Homo sapiens with 15 samples.

Results

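The TGF-beta ligands, receptors and SMADs measured here were 10 genes, taken from the 60649 genes in the count tables because their symbols are TGFB1, TGFB2, TGFBR1, TGFBR2, SMAD2, SMAD3, SMAD4, SMAD7, SKIL and INHBA. RNA was sequenced from HSC-5 cells, which come from a human squamous cell carcinoma of the skin, after CRISPR editing with Cas9 and guide RNAs against PRMT5 or against WDR77. The 5 conditions had 3 biological replicates each. The control, sgNeg, carried the empty guide vector and is labelled wild type, sgPRMT5-1 and sgPRMT5-2 are labelled PRMT5 knockouts, and sgWDR77-1 and sgWDR77-2 are labelled WDR77 knockouts. Neomycin is given as the treatment of all 15 libraries, the controls included. The knockouts are described as complete and checked by qRT-PCR, and no clone is named, so each library is taken as an average over a pool of cells. A large change in some of the cells and a smaller change in all of them cannot be told apart in such bulk RNA.

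Between 5146711 and 6730428 reads were counted on genes in each library. Expression is given as CPM, the counts scaled to a common library size by trimmed means, or as raw counts where these are few. Keratinocyte genes marked the cells in every library, with 4080 to 8073 counts of the keratin KRT17, 1735 to 2859 of the basal transcription factor TP63, 2632 to 4397 of the epithelial 14-3-3 protein SFN, 1872 to 2830 of the cadherin CDH3 and 762 to 1714 of the integrin ITGA6. Their levels were not constant. KRT17 was at 1420 to 1453 CPM with sgWDR77-2 and at 690 to 980 in all other libraries, and rose by 0.83 in log2 with that guide (adjusted p = 2.64e-06, limma voom). SFN rose with sgPRMT5-1, sgPRMT5-2 and sgWDR77-2 by 0.39, 0.45 and 0.34 (adjusted p = 0.0174, 0.00068 and 0.0315, limma voom). The other 4 genes of this list were low or lower in the knockouts. The basal keratin KRT14 had only 1 to 4 counts. Its partner KRT5 was at 3025 to 4504 counts in sgNeg and 1323 to 2191 with sgPRMT5-1. KRT5 was at 307 to 394 with sgPRMT5-2, 185 to 235 with sgWDR77-1 and 455 to 525 with sgWDR77-2. The keratin KRT6A was at 99 to 170 counts in sgNeg, 5 to 14 with sgPRMT5-2 and 5 to 11 with sgWDR77-1. The desmosomal cadherin DSG3 was at 296 to 350 in sgNeg and 140 to 295 in the knockouts. KRT5, KRT6A and DSG3 were below every sgNeg library in all 12 knockout libraries. Markers of other cell types were mostly low. COL1A2 of fibroblasts, KDR of endothelium, CD3E of T cells and TYR and DCT of melanocytes had 0 counts in all 15 libraries, PTPRC of leukocytes had at most 1 and PECAM1 of endothelium at most 3, while COL1A1 had 41 to 86. Low counts in every library were seen for PMEL (4 to 31) and MLANA (2 to 11) of melanocytes, VWF of endothelium (1 to 21) and CD14 of monocytes (2 to 12). The endothelial cadherin CDH5 had 157 to 184 counts with sgWDR77-1, against 86 to 122 in sgNeg. Replicates were not equally close. Over all genes, the chi-square per degree of freedom was 12.6 and 17.7 between sgWDR77-1 replicate 1 and the others and 3.21 between those, the widest case. For sgNeg replicate 2, which enters every comparison with the control, it was 9.16 and 6.44 against 3.86, for sgPRMT5-1 replicate 3 6.04 and 5.38 against 2.02, and for sgWDR77-2 replicate 1 4.97 and 6.78 against 2.03.

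TGF-beta ligands bind a complex of type II and type I receptor kinases, which phosphorylates SMAD2 and SMAD3. These join SMAD4, enter the nucleus and regulate transcription, and SMAD7 and SKIL are induced by the pathway and restrain it. In squamous epithelium the pathway slows proliferation of keratinocytes, and in carcinomas it is also known for promoting migration and matrix production. PRMT5 is an arginine methyltransferase that works in a complex with the WD-repeat protein WDR77.

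Transcripts of both edited genes were lower with their own guides. PRMT5 measured 59.1, 49.6 and 67.8 CPM in sgNeg, 33.0, 35.8 and 41.4 with sgPRMT5-1, 44.2, 44.5 and 39.4 with sgPRMT5-2, 54.5, 64.2 and 54.4 with sgWDR77-1 and 79.9, 65.2 and 64.5 with sgWDR77-2. All 6 libraries with a PRMT5 guide lay below the 3 of sgNeg. The log2 fold change was -0.67 (SE 0.132, adjusted p = 0.0057) with sgPRMT5-1 and -0.45 (SE 0.130, adjusted p = 0.0114) with sgPRMT5-2 by limma voom, a linear model of log counts weighted by their precision, with Benjamini-Hochberg adjustment over 14061 genes. WDR77 measured 125, 114 and 119 CPM in sgNeg, 134, 119 and 156 with sgPRMT5-1, 126, 130 and 119 with sgPRMT5-2, 30.9, 52.0 and 53.3 with sgWDR77-1 and 26.6, 24.9 and 22.0 with sgWDR77-2. Every library with a WDR77 guide lay below the other 9, and the sgWDR77-2 libraries lay lowest. WDR77 fell by a log2 fold change of -1.43 (SE 0.148) with sgWDR77-1 and -2.29 (SE 0.165) with sgWDR77-2, with adjusted p = 2.01e-06 and 6.89e-09 by limma voom. The guides differed by -0.85 (adjusted p = 0.0157 by limma voom), a call lost without sgWDR77-2 replicate 1 (adjusted p = 0.0674) or replicate 2 (adjusted p = 0.062). Over the alternative settings this adjusted p went as high as 0.177.

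Of the 10 genes, 8 passed the minimum mean normalized count of 3 that the test required, and SMAD4 and INHBA did not. Changes were called at an adjusted p of 0.05 or less. With sgPRMT5-1, 0 of the 8 were called by limma voom and 1 had an unadjusted p under 0.05, where 2.87% of all tested genes were called. With sgPRMT5-2, 2 of 8 were called, TGFB2 and TGFBR2, against 31.0% of all genes. The comparison of sgWDR77-1 with sgNeg called 2 of 8, TGFB1 and TGFB2, against 9.48% of all genes. The comparison of sgWDR77-2 with sgNeg called 2 of 8, TGFB2 and SMAD3, against 4.79%. These 4 comparisons share the same sgNeg libraries.

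Pooling the guides, PRMT5KO stands for the 6 libraries of both PRMT5 guides and WDR77KO for the 6 of both WDR77 guides. In PRMT5KO against sgNeg, 2 of 8 were called and both were up, where 22.8% of all genes were called, 12.0% up and 10.8% down. In WDR77KO against sgNeg, 3 of 8 were called, 1 up and 2 down, where 8.44% of all genes were called, 2.89% up and 5.55% down. With only the WDR77KO and sgNeg libraries fitted, 1 of 8 was called, TGFB2, against 3.39% of all genes. Between PRMT5KO and WDR77KO, 4 of 8 were called against 27.1% of all genes, with the spread taken from all 15 libraries, and 2 of 8 when only the 12 knockout libraries were fitted, where 1962 of 14015 genes were called. The share called in the comparisons of PRMT5 guides with sgNeg was near or below that of all genes. That in the comparisons of WDR77 guides was higher but rests on 2 or 3 genes in the fit of all 15 libraries. The difference between the PRMT5 guides was called for 1 of 8, TGFBR2, against 7.53% of all genes. The difference between the WDR77 guides was called by limma voom for 0 of 8, with 1 at an unadjusted p under 0.05, against 2.41% of all genes.

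A call with both guides to the same gene was rarer. For PRMT5, 0 of the 8 were up with both guides and 0 were down, where 1.23% of all genes were up and 1.56% down. For WDR77, 1 of the 8, TGFB2, was up with both guides and 0 were down, where 0.846% of all genes were up and 2.11% down. The plot of CPM by library shows all 10 genes.

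**Figure D1:**
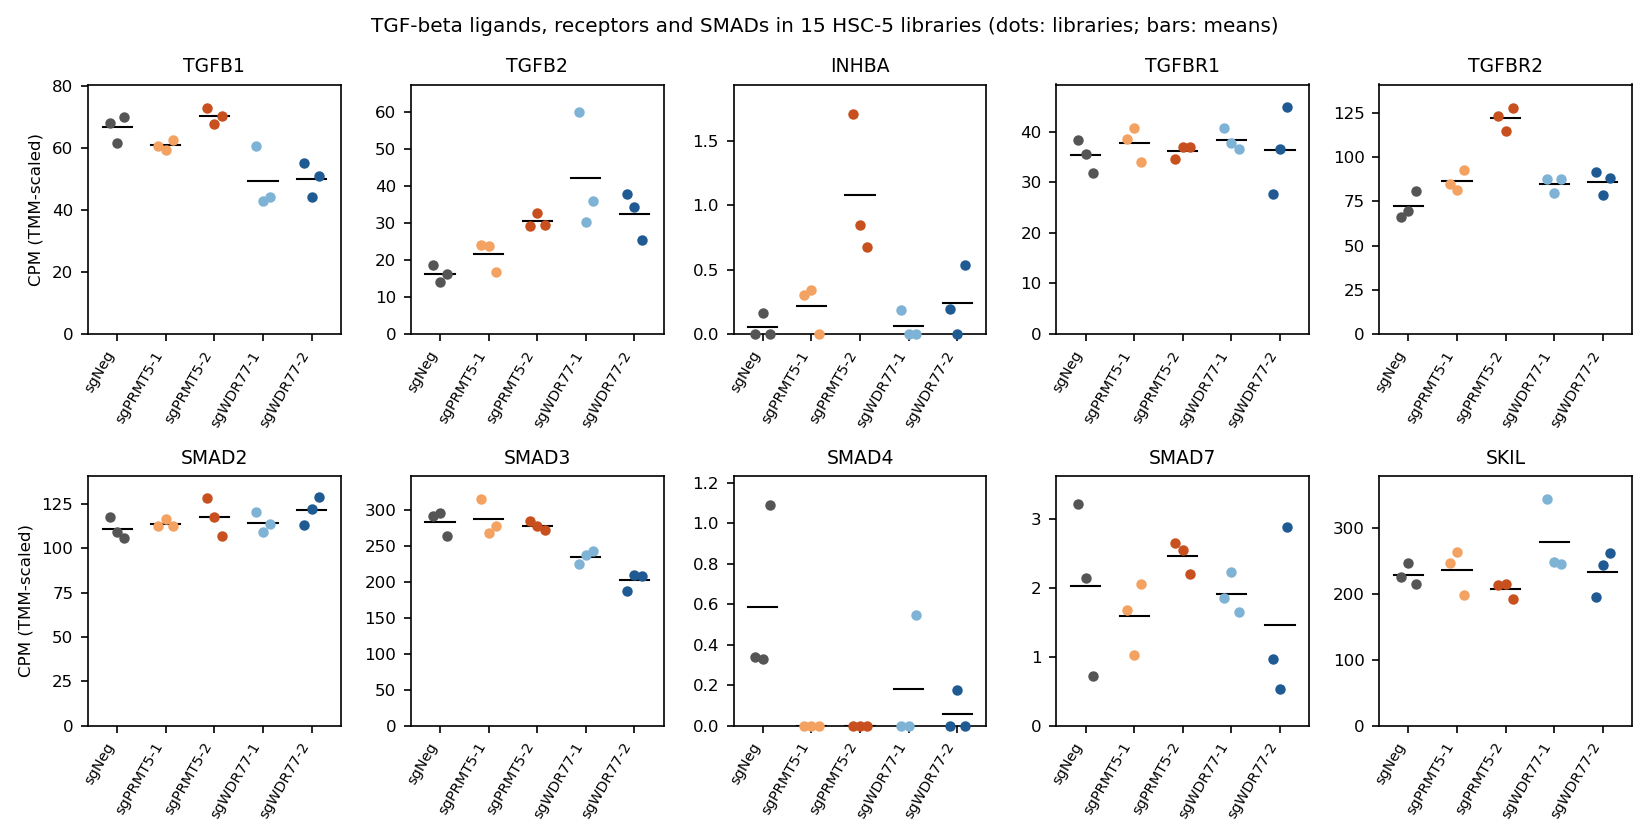
Expression of the 10 genes as TMM-scaled CPM (y axis, from 0, with its own scale in each panel) in the 5 conditions (x axis), with a dot for each of the 3 libraries and a bar at their mean. TGFB2 is above sgNeg in all libraries of sgPRMT5-2, sgWDR77-1 and sgWDR77-2, TGFBR2 is highest in sgPRMT5-2, and SMAD3 and TGFB1 are lower with both WDR77 guides.

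The ligand genes moved in different directions. TGFB2 (ENSG00000092969.12, hg38 chromosome 1, 218345336 to 218444619) encodes TGF-beta 2, a secreted cytokine. It measured 18.6, 13.97 and 16.3 CPM in sgNeg, 24.1, 23.8 and 16.8 in sgPRMT5-1 and 29.2, 32.8 and 29.6 in sgPRMT5-2. With the WDR77 guides it measured 60.2, 30.4 and 35.95 in sgWDR77-1 and 37.9, 34.3 and 25.4 in sgWDR77-2. The libraries of sgPRMT5-2, sgWDR77-1 and sgWDR77-2 all lay above every sgNeg library, whereas sgPRMT5-1 overlapped with sgNeg through its replicate 3. In order of mean CPM (± SD, n = 3), sgNeg at 16.3 ± 2.33 was followed by sgPRMT5-1 at 21.6 ± 4.15, sgPRMT5-2 at 30.6 ± 1.97, sgWDR77-2 at 32.5 ± 6.45 and sgWDR77-1 at 42.2 ± 15.9. Neighbours in this order overlapped in their libraries, except sgPRMT5-1 and sgPRMT5-2. The difference of sgPRMT5-2 from sgPRMT5-1 was 0.51 in log2 (adjusted p = 0.14 by limma voom), which did not pass the threshold. It passed when only those 6 libraries were fitted (0.52, adjusted p = 0.0108), and over all alternatives the adjusted p of this TGFB2 difference ranged from 0.0108 to 0.31. The antisense gene TGFB2-AS1, which shares 11.6% of the TGFB2 exon bases on the opposite strand, had 4 counts over all 15 libraries, and TGFB2-OT1, which shares 22.7% of them on the same strand, had 0. Reads of bases shared with TGFB2-OT1 may have been left out as ambiguous, so the level of TGFB2 may be too low.

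TGFB2 rose 1.88-fold with sgPRMT5-2 (log2 0.91, SE 0.226, adjusted p = 0.00406, limma voom). It rose 2.49-fold with sgWDR77-1 (log2 1.31, SE 0.222, adjusted p = 0.000574, limma voom) and 1.97-fold with sgWDR77-2 (log2 0.98, SE 0.227, adjusted p = 0.0119, limma voom). With sgPRMT5-1 the log2 fold change was 0.40 (SE 0.237, adjusted p = 0.401, limma voom), with a 95% confidence interval from -0.09 to 0.89. The sgWDR77-1 mean rested partly on replicate 1 at 60.2 CPM, and without that library the log2 fold change was 1.03 (adjusted p = 0.00098, limma voom). The call with sgWDR77-2 was lost in 4 of the 6 fits that left out 1 library. The adjusted p was 0.0776 without sgNeg replicate 2, 0.0502 without sgNeg replicate 3, 0.074 without sgWDR77-2 replicate 1 and 0.0636 without sgWDR77-2 replicate 2, at log2 fold changes of 0.86, 0.94, 0.84 and 0.90. Over all alternatives its adjusted p ranged from 0.00424 to 0.0776.

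Over both guides TGFB2 rose in PRMT5KO by 0.65 in log2 (SE 0.206, adjusted p = 0.0252, limma voom) and in WDR77KO by 1.15 (SE 0.202, adjusted p = 0.000713, limma voom). In PRMT5KO, 5 of the 6 libraries lay above every sgNeg library, and in WDR77KO all 6 did. The PRMT5KO value lost its call without any 1 of the sgNeg libraries (adjusted p = 0.0544, 0.142 and 0.0819 without replicates 1, 2 and 3). It also lost it without sgPRMT5-1 replicate 1 (0.0608), sgPRMT5-1 replicate 2 (0.0543) or sgPRMT5-2 replicate 2 (0.0588), while the log2 fold change of TGFB2 stayed between 0.53 and 0.73 in these 6 fits. Without the count filter it was 0.065. TGFB2 was lower in PRMT5KO than in WDR77KO by 0.49 in log2 (SE 0.144, adjusted p = 0.0145, limma voom), and by 0.37 without sgWDR77-1 replicate 1 (adjusted p = 0.0156). A fit of only those 12 libraries gave an adjusted p of 0.0742.

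TGFB1 (ENSG00000105329.11, chromosome 19, 41301587 to 41353922) encodes TGF-beta 1, the isoform first described. It measured 68.2, 61.6 and 70.2 CPM in sgNeg, 60.8, 59.4 and 62.5 in sgPRMT5-1 and 73.1, 67.7 and 70.4 in sgPRMT5-2. With the WDR77 guides it measured 60.8, 42.9 and 44.2 in sgWDR77-1 and 55.1, 44.3 and 51.1 in sgWDR77-2. All 6 WDR77KO libraries lay below the 3 of sgNeg, with sgWDR77-1 replicate 1 only just below, and both PRMT5 guides overlapped with sgNeg. Mean TGFB1 (± SD, n = 3) was 70.4 ± 2.71 CPM in sgPRMT5-2, 66.7 ± 4.49 in sgNeg, 60.9 ± 1.54 in sgPRMT5-1, 50.2 ± 5.43 in sgWDR77-2 and 49.3 ± 9.96 in sgWDR77-1. HNRNPUL1, which shares 6.59% of the TGFB1 exon bases on the opposite strand, had 31381 counts over the 15 libraries, and the strand setting of the counting is not stated, so reads of the shared bases could not be assigned to either gene with certainty.

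TGFB1 fell in WDR77KO by 0.43 in log2 (fold 0.741, SE 0.104, adjusted p = 0.0102, limma voom). With only the WDR77KO and sgNeg libraries in the fit, this pooled call was lost at the same log2 fold change (-0.43, adjusted p = 0.0654). TGFB1 fell with sgWDR77-1 by 0.45 (SE 0.122, adjusted p = 0.0218, limma voom), while with sgWDR77-2 the log2 fold change of -0.41 (SE 0.121) had an adjusted p of 0.0503 and was not called. The values of the single guides lay on either side of the threshold, and 1 library was enough to move them across it. The sgWDR77-1 call was lost without sgNeg replicate 3 (-0.44, adjusted p = 0.0623), sgWDR77-1 replicate 2 (-0.38, adjusted p = 0.0732) or sgWDR77-1 replicate 3 (-0.38, adjusted p = 0.0647), and without sgWDR77-1 replicate 1 the TGFB1 change was larger, at -0.60 (adjusted p = 0.000952). With only the libraries compared, the sgWDR77-1 call was lost as well (adjusted p = 0.158). The sgWDR77-2 value of TGFB1 was called in 7 of 13 alternatives. These were the fits without sgNeg replicate 2 (-0.48, adjusted p = 0.0439) or sgWDR77-2 replicate 1 (-0.51, adjusted p = 0.0346), either of the other scalings (adjusted p = 0.037 and 0.0198), only the libraries compared (0.0382), blocks by replicate number (0.0392) and a filter at a mean count of 10 (0.0476). Over all alternatives the adjusted p of TGFB1 ranged from 0.000952 to 0.158 with sgWDR77-1 and from 0.0198 to 0.159 with sgWDR77-2. The guides did not differ beyond the test (0.04, adjusted p = 0.908, limma voom). In PRMT5KO the TGFB1 log2 fold change was -0.02 (95% confidence interval -0.23 to 0.18), and the difference between PRMT5KO and WDR77KO was 0.41 (SE 0.0856, adjusted p = 0.00135, limma voom).

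INHBA (ENSG00000122641.11, chromosome 7, 41667168 to 41705834), which encodes the subunit that forms activin A, was close to the detection limit. Its counts were 0, 1 and 0 in sgNeg, 2, 2 and 0 with sgPRMT5-1, 11, 5 and 4 with sgPRMT5-2, 1, 0 and 0 with sgWDR77-1 and 1, 0 and 3 with sgWDR77-2. The sgPRMT5-2 libraries were the only ones above 3 counts, the number that a count of 0 still allows and equal to 0.446 to 0.583 CPM at these depths. INHBA was below the count filter and was not tested. Without the filter limma voom gave an adjusted p of 0.00132 for sgPRMT5-2 and 0.588 for sgPRMT5-1 against sgNeg, 0.142 between these guides, 0.0274 for PRMT5KO against sgNeg and 0.0884 for PRMT5KO against WDR77KO.

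Of the receptors, the type II gene moved. TGFBR2 (ENSG00000163513.19, chromosome 3, 30606601 to 30694142) encodes the kinase that binds the ligand first. It measured 66.4, 69.9 and 80.9 CPM in sgNeg, 84.8, 81.7 and 92.8 in sgPRMT5-1 and 123, 115 and 128 in sgPRMT5-2. With the WDR77 guides it measured 87.6, 79.8 and 87.6 in sgWDR77-1 and 91.9, 78.4 and 88.4 in sgWDR77-2. The 3 sgPRMT5-2 libraries lay above all 12 others, the sgPRMT5-1 libraries lay just above sgNeg, and both WDR77 guides overlapped with the highest sgNeg library. The mean CPM (± SD, n = 3) was 122 ± 6.55 in sgPRMT5-2, then 86.4 ± 5.75 in sgPRMT5-1, 86.2 ± 6.96 in sgWDR77-2, 85.0 ± 4.50 in sgWDR77-1 and 72.4 ± 7.59 in sgNeg. The middle conditions overlapped with one another.

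TGFBR2 rose 1.69-fold with sgPRMT5-2 (log2 0.76, SE 0.0998, adjusted p = 8.59e-06, limma voom). With the other guides its log2 fold changes were 0.26, 0.24 and 0.26 for sgPRMT5-1, sgWDR77-1 and sgWDR77-2, with adjusted p of 0.187, 0.162 and 0.166 by limma voom, and were not called. The PRMT5 guides differed in TGFBR2 by 0.50 (SE 0.0979, adjusted p = 0.00284, limma voom), so that the PRMT5KO value of 0.51 (SE 0.0883, adjusted p = 0.000287, limma voom) averages over unequal guides. PRMT5KO exceeded WDR77KO in TGFBR2 by 0.26 (SE 0.0707, adjusted p = 0.00856, limma voom), with an adjusted p of 0.114 when only those 12 libraries were fitted. TGFBR1 (ENSG00000106799.13, chromosome 9, 99104038 to 99154192), the type I kinase that phosphorylates the SMADs, had 144 to 253 counts per library. Its condition means ran from 35.3 CPM in sgNeg to 38.4 in sgWDR77-1, and the condition ranges overlapped. For TGFBR1 the widest 95% confidence interval against sgNeg was -0.27 to 0.31 in log2, for sgWDR77-2.

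**Figure D2:**
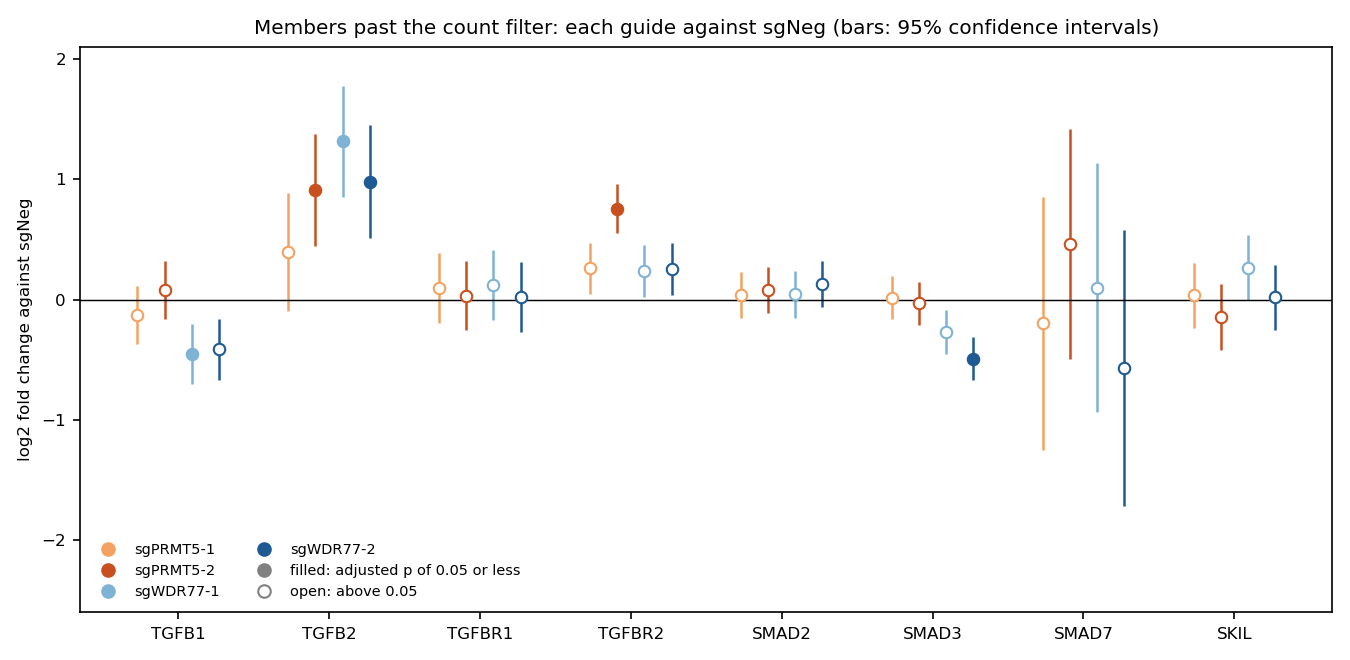
Log2 fold change against sgNeg (y axis) of the 8 genes that passed the count filter (x axis) for each guide, with 95% confidence intervals as bars and filled points where the adjusted p was 0.05 or less. TGFB2 is called with 3 of the 4 guides, TGFBR2 with sgPRMT5-2, TGFB1 with sgWDR77-1 and SMAD3 with sgWDR77-2, and the intervals of SMAD7 are the widest.

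Among the receptor SMADs, SMAD3 (ENSG00000166949.17, chromosome 15, 67063763 to 67195173), which binds DNA directly, was lower with the WDR77 guides. It measured 292, 296 and 265 CPM in sgNeg, 316, 269 and 279 in sgPRMT5-1 and 285, 278 and 272 in sgPRMT5-2. With the WDR77 guides it measured 226, 238 and 244 in sgWDR77-1 and 188, 210 and 209 in sgWDR77-2. The WDR77 guides overlapped neither with sgNeg nor with each other, and all PRMT5KO libraries lay among or above the sgNeg values. The order of the means (± SD, n = 3) was 288 ± 24.9 in sgPRMT5-1, 284 ± 16.8 in sgNeg, 278 ± 6.38 in sgPRMT5-2, 236 ± 8.98 in sgWDR77-1 and 202 ± 12.6 in sgWDR77-2, and the first 3 did not differ beyond their spread.

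SMAD3 fell to 0.712 of sgNeg with sgWDR77-2 (log2 -0.49, SE 0.0871, adjusted p = 0.0013, limma voom). With sgWDR77-1 the log2 fold change of SMAD3 was -0.27 (SE 0.0865, adjusted p = 0.0517, limma voom) and missed the threshold, although all 3 libraries were below sgNeg. It was called in 4 of 13 alternatives, without sgNeg replicate 3 (-0.35, adjusted p = 0.0382) or sgWDR77-1 replicate 3 (-0.30, adjusted p = 0.0465), without the count filter (0.0345) and with a minimum mean count of 10 (0.0473), and its adjusted p ranged from 0.0345 to 0.275 over all alternatives. The WDR77 guides differed by -0.22 (adjusted p = 0.173, limma voom), which was not called. Over both guides SMAD3 fell by 0.38 in log2 in WDR77KO (SE 0.0748, adjusted p = 0.00212, limma voom), and the difference of PRMT5KO from WDR77KO was 0.37 (SE 0.0613, adjusted p = 0.000136, limma voom). In PRMT5KO the log2 fold change was -0.01 (95% confidence interval -0.16 to 0.15). With only the WDR77KO and sgNeg libraries in the fit, the adjusted p was 0.0556 for SMAD3 and 0.0654 for TGFB1. SMAD2 (ENSG00000175387.16, chromosome 18, 47808957 to 47931146), the other SMAD that the type I receptor phosphorylates, had 585 to 825 counts per library and condition means from 111 CPM in sgNeg to 122 in sgWDR77-2. Its libraries overlapped across all conditions, and the SMAD2 log2 fold change was 0.06 (95% confidence interval -0.11 to 0.23) in PRMT5KO and 0.09 (-0.08 to 0.25) in WDR77KO.

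SMAD4 (ENSG00000141646.14, chromosome 18, 51028528 to 51085045), the partner that receptor SMADs share, was nearly undetected. Its counts were 2, 2 and 6 in sgNeg, 0 in each of the 6 PRMT5KO libraries, 0, 0 and 3 in sgWDR77-1 and 0, 1 and 0 in sgWDR77-2. The 3 control libraries together held 10 SMAD4 reads, and of the 12 knockout libraries only 2 held any. A count of 0 allows up to 3 counts in a library, so the sgNeg libraries with 2 counts cannot be told from those at 0, and no fold change is given. SMAD4 was below the filter and was not tested. Without the filter limma voom gave it an adjusted p of 0.00954 with sgPRMT5-1 and 0.00126 with sgPRMT5-2, against 0.226 and 0.0816 with the WDR77 guides, and these values rest on the 10 reads in sgNeg. Of 19942 protein-coding genes in these tables, 42.2% had a median under 1 CPM.

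Genes beside SMAD4 on chromosome 18, examined after the SMAD4 counts were seen, were low as well. From MAPK4 to DCC, 8 consecutive protein-coding genes, SMAD4 and a gene model overlapping it among them, had at most 20 counts in any library, in a stretch of 3757 kb between the end of SKA1 and the start of MBD2. ME2, a mitochondrial malic enzyme separated from SMAD4 by ELAC1, had 13, 9 and 20 counts in sgNeg, 2, 0 and 0 with sgPRMT5-1, 0, 2 and 2 with sgPRMT5-2, 2, 6 and 1 with sgWDR77-1 and 12, 9 and 6 with sgWDR77-2. MEX3C, an RNA-binding ubiquitin ligase on the other side, had 7, 4 and 4 counts in sgNeg, 3, 0 and 0 with sgPRMT5-1, 0, 1 and 0 with sgPRMT5-2, 11, 3 and 7 with sgWDR77-1 and 3, 6 and 6 with sgWDR77-2. Both genes had their lowest sums in the PRMT5 guides, and ELAC1, an RNA-processing enzyme gene, had 0 counts in all 15 libraries. The gene model RP11-729L2.2 spans most of ELAC1 and part of SMAD4 on the same strand, and shares 4.93% of the SMAD4 exon bases. Reads of shared bases may have been left out as ambiguous, so the counts of ELAC1 and SMAD4 may be too low. Together ME2, ELAC1, SMAD4 and MEX3C had 67 counts in sgNeg, 5 with sgPRMT5-1, 5 with sgPRMT5-2, 33 with sgWDR77-1 and 43 with sgWDR77-2. Low counts were not limited to the stretch. Of the 28 other protein-coding genes examined around it, 14 also had at most 20 counts in every library. HDHD2 (1 to 6) and CTIF (5 to 17) were among them. The 14 also included gene models that overlap in span on the same strand, HDHD2 with RP11-49K24.6 and C18orf32 with RPL17-C18orf32. Reads shared by such models may have been left out in the same way, so their counts may be too low. SKA1 at the edge had 18 to 50 counts, while MBD2 beyond the other edge had 338 to 672 and SMAD2 585 to 825. No DNA was measured in these samples, and the state of the locus was not tested.

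**Figure D3:**
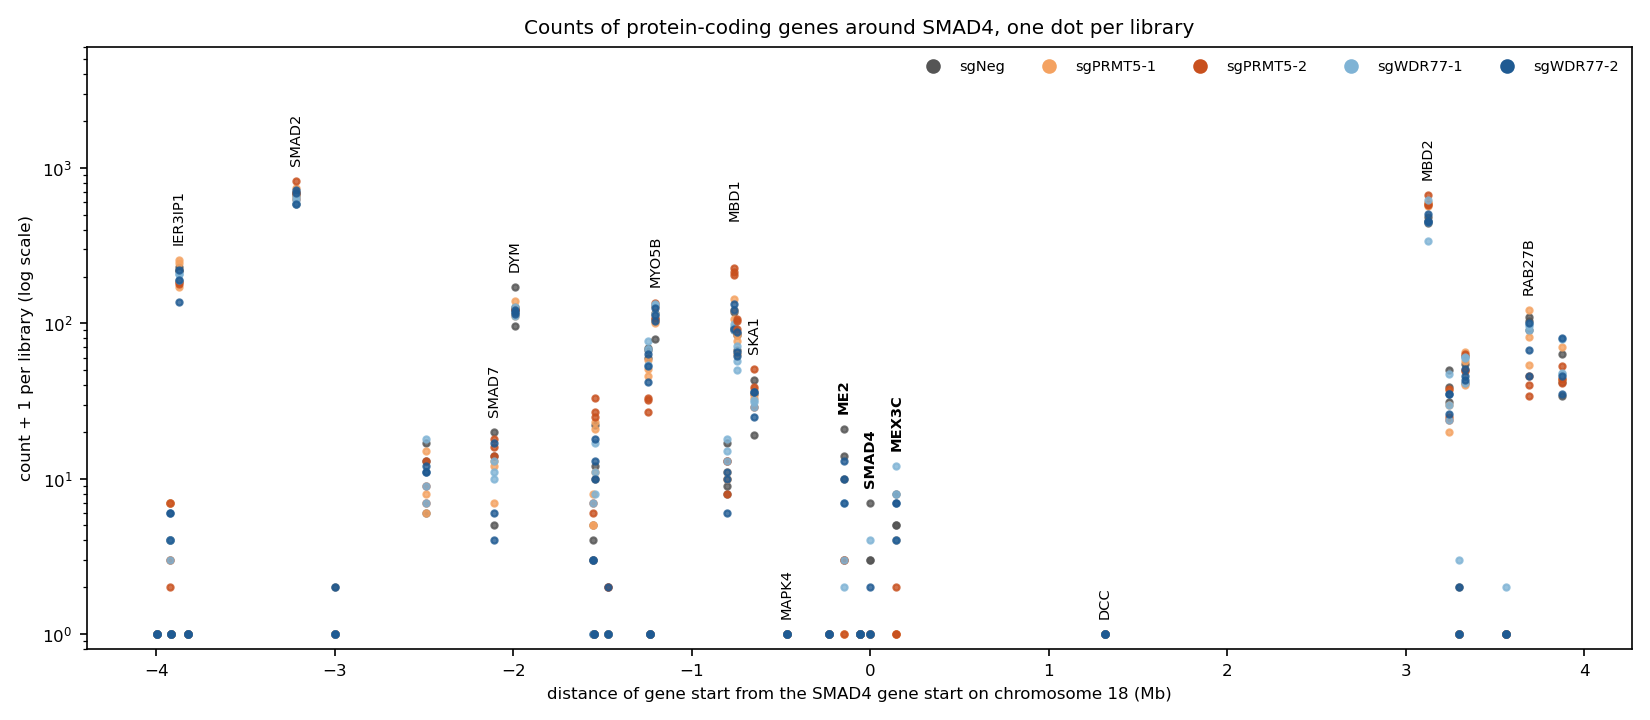
Counts plus 1 per library on a log scale (y axis) of protein-coding genes, placed by the distance of their start from the start of SMAD4 in Mb (x axis), with 1 dot per library coloured by condition. Genes between SKA1 and MBD2 have at most 20 counts, and libraries with 0 counts lie at the bottom, while SMAD2 and MBD2 have 338 counts or more in every library and 14 genes outside this stretch have at most 20.

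Both inhibitors lacked a call in all 9 comparisons. SMAD7 (ENSG00000101665.10, chromosome 18, 48919853 to 48950965), which blocks the type I receptor, had 19, 13 and 4 counts in sgNeg, 11, 6 and 12 with sgPRMT5-1, 17, 15 and 13 with sgPRMT5-2, 10, 12 and 9 with sgWDR77-1 and 5, 3 and 16 with sgWDR77-2. The sgNeg libraries alone spanned nearly the whole range, and every condition overlapped with them. At this depth the SMAD7 confidence interval in PRMT5KO ran from -0.75 to 1.01 in log2 and that in WDR77KO from -1.16 to 0.70, so a change of 1.5-fold was not detectable. SKIL (ENSG00000136603.14, chromosome 3, 170357342 to 170396835), which encodes the SMAD corepressor SnoN, measured 226, 248 and 215 CPM in sgNeg, 248, 264 and 198 with sgPRMT5-1, 214, 216 and 193 with sgPRMT5-2, 344, 249 and 245 with sgWDR77-1 and 195, 244 and 263 with sgWDR77-2. The sgWDR77-1 replicate 1 library was highest, each knockout condition overlapped with sgNeg, and all sgPRMT5-2 libraries lay below those of sgWDR77-1. Its log2 fold change with sgWDR77-1 was 0.27 (adjusted p = 0.214, limma voom) and 0.11 without that library (adjusted p = 0.603). The difference of PRMT5KO from WDR77KO in SKIL, -0.20 (adjusted p = 0.117, limma voom), was called without sgWDR77-1 replicate 3 (-0.25, adjusted p = 0.0485) or sgWDR77-2 replicate 1 (-0.26, adjusted p = 0.0292) and when scaled by library totals alone (-0.26, adjusted p = 0.0365). Over all alternatives of this comparison the highest adjusted p of SKIL was 0.289.

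Per kilobase of exon, the members differed widely in the control. In sgNeg the mean level (± SD, n = 3) was 28.4 ± 1.68 CPM per kb for SMAD3, 28.3 ± 2.02 for SKIL, 20.4 ± 1.38 for TGFB1, 10.6 ± 1.11 for TGFBR2, 4.42 ± 0.409 for TGFBR1, 3.05 ± 0.164 for SMAD2, 2.695 ± 0.385 for TGFB2 and 0.514 ± 0.317 for SMAD7. SMAD3 and SKIL did not differ beyond their spread on this scale, nor did SMAD2 and TGFB2. The SMAD2 level depends on a long annotated exon length, 36426 bases against 6050 for TGFB2. In raw counts the sgNeg libraries held 585 to 695 of SMAD2 and 85 to 110 of TGFB2. With the longest transcript as the length, SMAD3 was at 43.97 CPM per kb and SKIL at 30.5. SMAD4 and INHBA were lowest, at 0.0299 and 0.00661 CPM per kb.

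The promoters of the 4 genes called in at least 1 comparison are shown because members moved together in some conditions and apart in others. The sequences are from RefSeq (GRCh38.p14) and run from 250 bases before to 50 bases after the start of the MANE transcript, on the strand of the gene. They are chr19:41353873-41354172 on the minus strand for TGFB1, and chr1:218345086-218345385 for TGFB2, chr3:30606351-30606650 for TGFBR2 and chr15:67065352-67065651 for SMAD3 on the plus strand. Capitals mark matches, on either strand, to the palindromic SMAD element GTCTAGAC, the single SMAD box CAGAC or the AP-1 element TGANTCA, none of which contains another.

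TGFB1: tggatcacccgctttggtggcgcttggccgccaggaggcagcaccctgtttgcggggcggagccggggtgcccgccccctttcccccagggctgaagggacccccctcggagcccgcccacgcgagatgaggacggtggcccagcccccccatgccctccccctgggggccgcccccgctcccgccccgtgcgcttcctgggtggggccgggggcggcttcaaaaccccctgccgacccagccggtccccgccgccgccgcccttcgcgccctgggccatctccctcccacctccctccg
TGFB2: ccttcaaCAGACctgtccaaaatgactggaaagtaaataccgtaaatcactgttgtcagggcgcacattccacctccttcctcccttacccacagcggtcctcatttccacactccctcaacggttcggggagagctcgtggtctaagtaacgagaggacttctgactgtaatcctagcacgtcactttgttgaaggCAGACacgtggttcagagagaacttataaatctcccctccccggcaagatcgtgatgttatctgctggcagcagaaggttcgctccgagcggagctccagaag
TGFBR2: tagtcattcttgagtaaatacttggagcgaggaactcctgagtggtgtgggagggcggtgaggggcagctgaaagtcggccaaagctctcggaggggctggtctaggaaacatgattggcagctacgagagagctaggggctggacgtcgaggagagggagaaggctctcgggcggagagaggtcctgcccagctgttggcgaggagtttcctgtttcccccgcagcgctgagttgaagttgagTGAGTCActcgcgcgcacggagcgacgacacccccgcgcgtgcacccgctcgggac
SMAD3: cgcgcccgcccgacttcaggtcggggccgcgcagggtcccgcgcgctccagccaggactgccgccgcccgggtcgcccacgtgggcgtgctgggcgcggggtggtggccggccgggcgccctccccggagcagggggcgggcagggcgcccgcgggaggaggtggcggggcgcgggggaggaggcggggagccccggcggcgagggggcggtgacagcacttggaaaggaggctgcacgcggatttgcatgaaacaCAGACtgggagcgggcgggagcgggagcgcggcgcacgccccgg

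The TGFB2 window held CAGAC at positions 8 and 198, the TGFBR2 window held an AP-1 match at position 245, the SMAD3 window held CAGAC at position 257, and these letters were not in the TGFB1 window. All 10 genes were in the table, with 25 windows in total. Of these, 12 held CAGAC, 2 held TGANTCA and 0 held GTCTAGAC. The windows were spread unevenly over the genes, with the most for TGFBR1 and several for SMAD3, and some overlap. A TGFBR1 window placed 30 bases from the one at the MANE start held the same CAGAC match, so a site can count more than once. Among all 35116 windows of this length, 45.3% held CAGAC, 7.71% held TGANTCA and 0.202% held GTCTAGAC. A match describes letters and not a bound site.

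The genes closest in pattern to the 2 tested members with the widest range over conditions were found from log2 CPM in the 15 libraries, each centred on its own mean. For TGFB2 they were AGTPBP1, ARHGAP26, RASSF6, PPP4R4 and TMC5, at root mean square differences of 0.27 to 0.30, against a median of 0.61 over 14060 genes. TMC5, for example, had condition means of 82.9 CPM in sgNeg, 92.5 with sgPRMT5-1, 103 with sgPRMT5-2, 143 with sgWDR77-1 and 121 with sgWDR77-2. For SMAD7 the closest were RP6-65G23.3, MAGIX, ST6GALNAC5, SOCS7 and CMTR2, at 0.39 to 0.43 against a median of 0.65, all measured against the noise of few SMAD7 counts. SMAD4 and INHBA were left out of this ranking after their counts were seen.

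The rest of the pathway was described with 79 other genes in lists by role, of which 68 passed the count filter. In PRMT5KO 15 rose and 12 fell, where 12.0% of all genes were up and 10.8% down, with a median log2 fold change of -0.01 against 0.01 for all genes. In WDR77KO 4 rose and 4 fell, where 2.89% of all genes were up and 5.55% down, with a median of 0.03 against 0.00. The same shares of all genes apply to the lists below. They depended on the scaling, as with library totals alone 7.62% of all genes were up and 14.6% down in PRMT5KO, and 15 of the 68 were up and 17 down. The single guides gave 2 up and 2 down with sgPRMT5-1, 17 up and 18 down with sgPRMT5-2, 3 up and 3 down with sgWDR77-1 and 4 up and 5 down with sgWDR77-2, where 2.87%, 31.0%, 9.48% and 4.79% of all genes were called, in comparisons that share sgNeg. Of the transcriptional targets, 22 of 23 were tested, and 7 rose and 5 fell in PRMT5KO (median -0.01) while 2 rose and 2 fell in WDR77KO (median -0.01). Ubiquitin ligases and adaptors of the pathway had 4 of 10 up and 0 down in PRMT5KO, and 0 up and 1 down in WDR77KO. Among the latency and activation genes 0 of 8 rose and 2 fell in PRMT5KO, while 1 rose and 0 fell in WDR77KO and 2 rose and 0 fell with sgWDR77-1. Among the other receptors 2 of 11 rose and 1 fell in PRMT5KO, and 1 rose and 0 fell in WDR77KO. The other ligands had 1 of 8 up and 2 down in PRMT5KO and 0 up and 1 down in WDR77KO. In PRMT5KO the 2 extracellular antagonists tested were 1 up (FST) and 1 down (FSTL3), and of the 3 nuclear corepressors 1 fell (TGIF1), all named after their values were seen. The other SMADs had 0 of 4 called in PRMT5KO and in WDR77KO by limma voom, with 1 at an unadjusted p under 0.05 in each. With sgPRMT5-2, 1 of 4 fell (SMAD9), where 14.7% of all genes were down. Between the knockouts, 2 of 4 (SMAD1 and SMAD5) were lower in PRMT5KO than in WDR77KO, where 11.4% of all genes were.

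**Figure D4:**
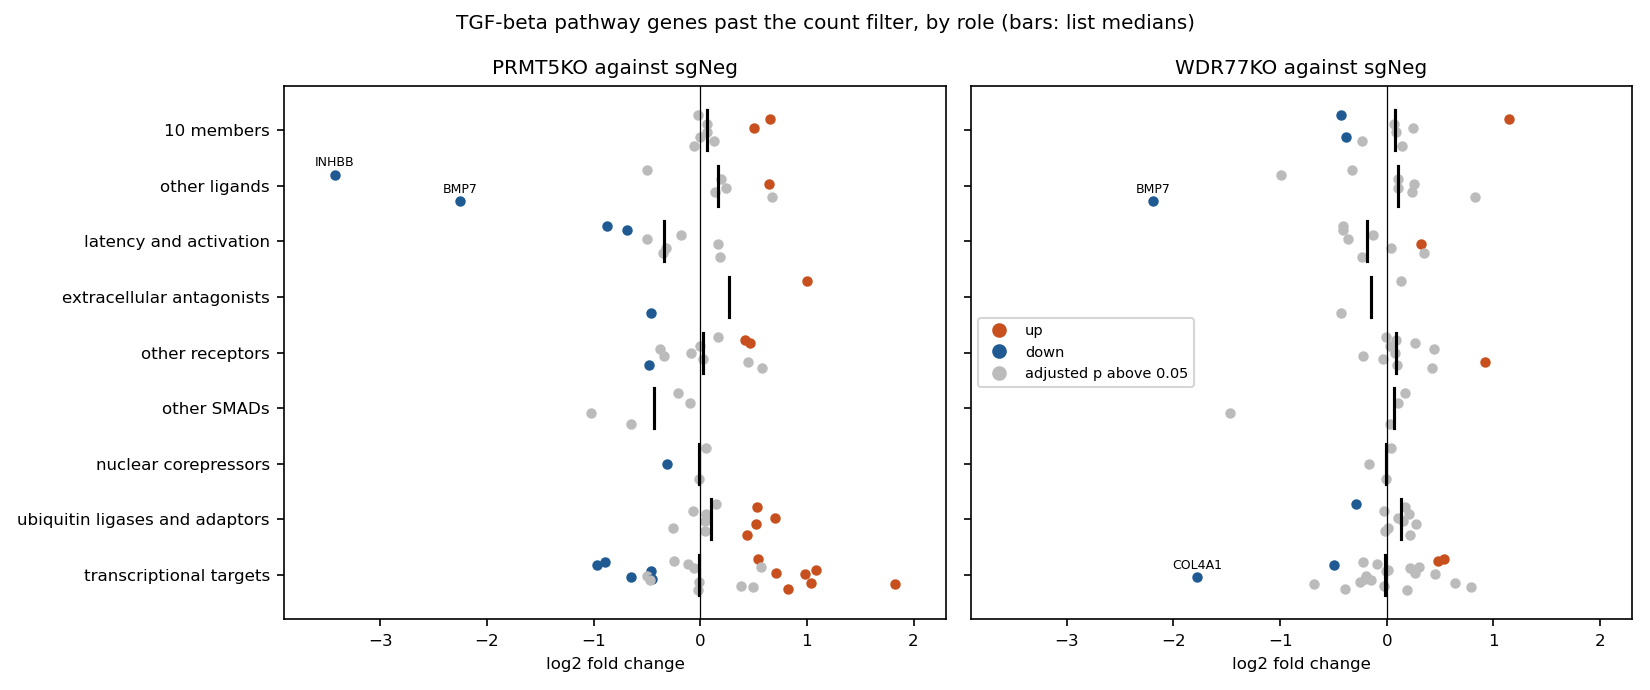
Log2 fold change (x axis) of each TGF-beta pathway gene past the count filter, by role (y axis), in PRMT5KO and in WDR77KO against sgNeg, with 1 dot per gene, a bar at the list median and colours for genes called up or down. Named points are BMP7, INHBB and COL4A1.

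Among the other ligands, BMP7, a bone morphogenetic protein, fell with every guide. It had 140, 134 and 158 counts in sgNeg, 62, 30 and 25 with sgPRMT5-1, 31, 26 and 22 with sgPRMT5-2, 27, 32 and 26 with sgWDR77-1 and 27, 28 and 34 with sgWDR77-2. All 12 knockout libraries lay below sgNeg, with sgPRMT5-1 replicate 1 the highest of them. BMP7 fell by 2.25 in log2 in PRMT5KO (SE 0.179, adjusted p = 1.64e-08, limma voom) and by 2.19 in WDR77KO (SE 0.181, adjusted p = 3.11e-08, limma voom), and the knockouts differed by -0.06 (95% confidence interval -0.48 to 0.36). INHBB, the activin B subunit, had 34, 11 and 34 counts in sgNeg, 3, 3 and 4 with sgPRMT5-1, 3, 1 and 0 with sgPRMT5-2, 9, 17 and 7 with sgWDR77-1 and 9, 11 and 13 with sgWDR77-2. The PRMT5 guides lay below all other libraries, whereas the WDR77 guides overlapped with sgNeg replicate 2. INHBB fell in PRMT5KO (adjusted p = 0.000105, limma voom) and was lower there than in WDR77KO (adjusted p = 0.00217). No exact fold is given for INHBB, since 5 of the 6 PRMT5KO libraries had 3 counts or fewer and the log2 fold change ranged from -4.02 to -2.69 over the alternatives. With sgPRMT5-1 alone the INHBB call (adjusted p = 0.0199, limma voom) was lost without sgNeg replicate 1 (0.0549) or any 1 of the sgPRMT5-1 libraries (0.0765, 0.0968 and 0.0971), and without sgNeg replicate 2 INHBB was also called in WDR77KO (-1.58, adjusted p = 0.00223). BMPR1B, a BMP type I receptor, rose in WDR77KO (log2 0.92, SE 0.189, adjusted p = 0.00294, limma voom), with 16.8 to 27.7 CPM in its 6 libraries against 7.98 to 15.1 in sgNeg. The lowest sgNeg value carried weight, as without replicate 3 the BMPR1B log2 fold change was 0.64 (adjusted p = 0.0518), 0.67 with sgWDR77-1 (adjusted p = 0.0695) and 0.62 with sgWDR77-2 (adjusted p = 0.107). A fit of only the sgWDR77-1 and sgNeg libraries, with every sgNeg replicate kept, also lost the call at a log2 fold change of 0.97 (adjusted p = 0.0515). Without sgWDR77-2 replicate 2 the value with that guide was 0.72 (adjusted p = 0.106).

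Fibronectin, encoded by the matrix gene FN1, rose with both PRMT5 guides. FN1 measured 11.3, 10.2 and 12.3 CPM in sgNeg, 19.3, 17.99 and 19.7 with sgPRMT5-1, 28.9, 26.5 and 23.5 with sgPRMT5-2, 14.96, 13.7 and 17.5 with sgWDR77-1 and 16.6, 14.7 and 15.5 with sgWDR77-2. The sgPRMT5-2 libraries were highest, sgPRMT5-1 lay between them and the rest, and all 12 knockout libraries were above sgNeg. The FN1 log2 fold change in PRMT5KO was 0.99 (SE 0.137, adjusted p = 2.68e-05, limma voom). FN1 with sgPRMT5-1 (0.75, adjusted p = 0.00804) lost its call without sgNeg replicate 2 (0.66, adjusted p = 0.0561) or sgPRMT5-1 replicate 3 (0.69, adjusted p = 0.0607). In WDR77KO, FN1 at 0.46 missed the threshold (adjusted p = 0.0504, limma voom) and passed it in 5 of 16 alternatives. These were the fits without sgWDR77-1 replicate 1 (0.0386) or replicate 2 (0.049), with another scaling, RLE (0.0483), with a minimum mean count of 10 (0.0447) and with limma-trend (0.0328). USP15, a deubiquitinase that acts on the type I receptor, rose in PRMT5KO by 0.52 (SE 0.0871, adjusted p = 0.000196, limma voom), with 84.6 to 116 CPM against 67.9 to 73.8 in sgNeg. Its call with sgPRMT5-1 (0.37, adjusted p = 0.0457) was lost in 11 of 13 alternatives. It was lost with either other scaling (adjusted p = 0.07 and 0.0827), without the count filter (0.0554), with the replicate number as a block (0.0656), with only the libraries compared (0.0538) and in each of the 6 fits without 1 library, where the adjusted p of USP15 was 0.198, 0.141 and 0.103 without sgNeg replicates 1, 2 and 3 and 0.0552, 0.192 and 0.22 without sgPRMT5-1 replicates 1, 2 and 3. In WDR77KO USP15 was at 0.27 (adjusted p = 0.0564, limma voom), and was called without sgWDR77-1 replicate 3 (0.31, adjusted p = 0.0291) or with library totals alone (0.26, adjusted p = 0.0473).

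COL4A1, a basement membrane collagen, and ID1, a helix-loop-helix inhibitor that responds to BMP, fell with both WDR77 guides and with sgPRMT5-2. COL4A1 measured 75.0, 83.0 and 68.2 CPM in sgNeg, 74.1, 56.7 and 51.9 with sgPRMT5-1, 41.5, 37.4 and 34.9 with sgPRMT5-2, 22.0, 17.4 and 12.8 with sgWDR77-1 and 27.3, 27.2 and 30.4 with sgWDR77-2. ID1 measured 197, 169 and 160 CPM in sgNeg, 164, 157 and 133 with sgPRMT5-1, 54.4, 48.6 and 55.2 with sgPRMT5-2, 107, 121 and 117 with sgWDR77-1 and 136, 126 and 137 with sgWDR77-2. COL4A1 was lowest with the WDR77 guides and ID1 with sgPRMT5-2, and only sgPRMT5-1 overlapped with sgNeg in each. In WDR77KO the log2 fold change was -1.78 for COL4A1 (SE 0.132, adjusted p = 5.5e-09, limma voom) and -0.50 for ID1 (SE 0.0869, adjusted p = 0.000654, limma voom). With sgPRMT5-2, ID1 fell by 1.73 (SE 0.109, adjusted p = 2.29e-10, limma voom) and COL4A1 by 0.99 (SE 0.142, adjusted p = 2.33e-05, limma voom). The sgWDR77-2 call of ID1 (-0.39, adjusted p = 0.0233, limma voom) was lost without sgNeg replicate 1 (-0.34, adjusted p = 0.0943) or sgWDR77-2 replicate 2 (-0.39, adjusted p = 0.0803).

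**Figure D5:**
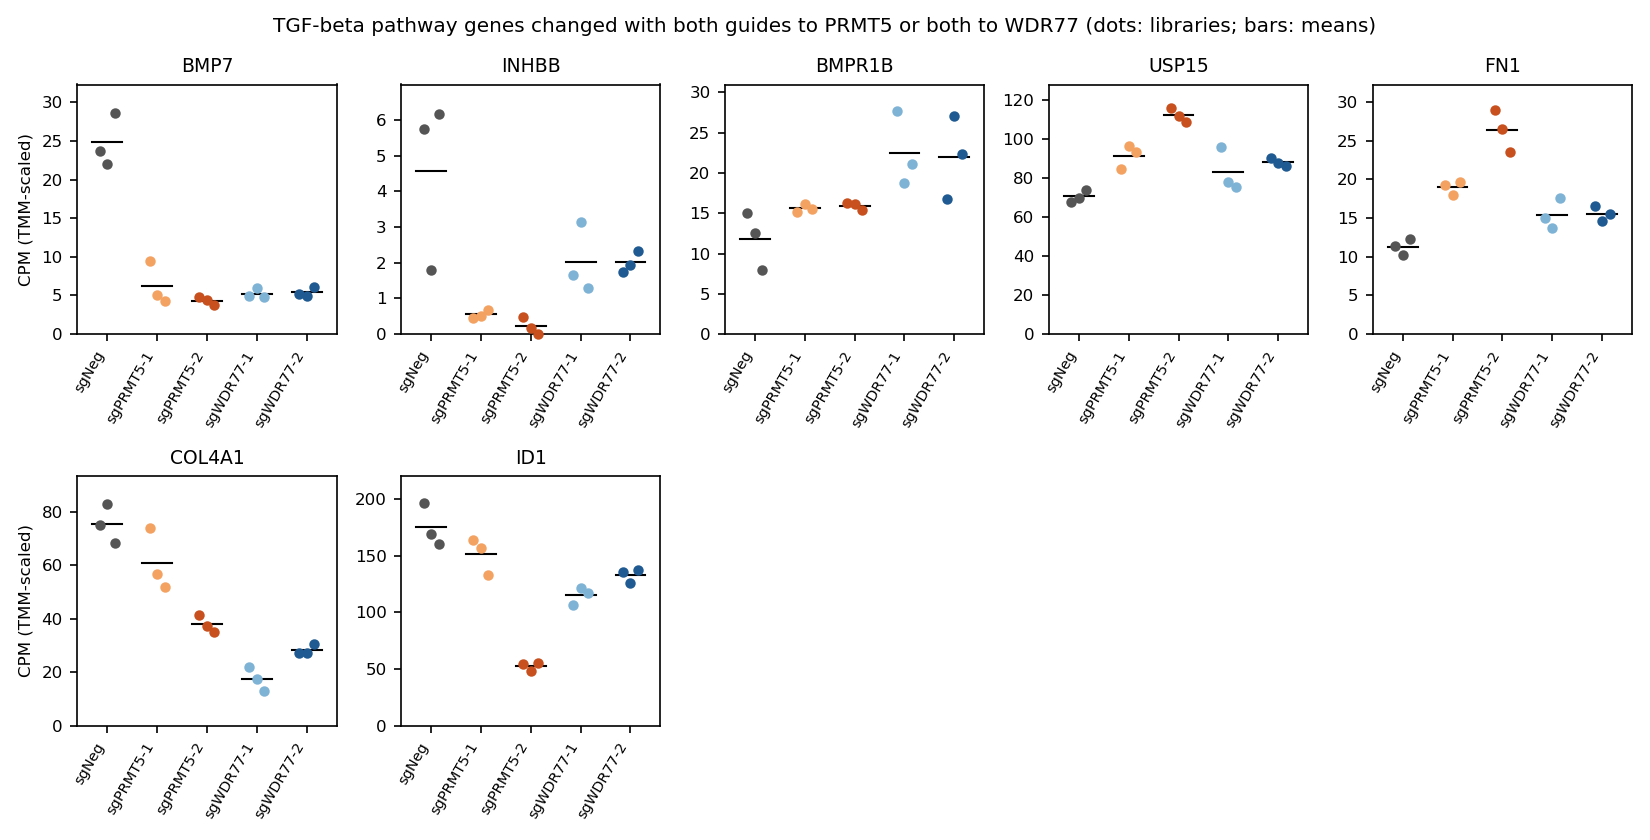
Expression of 7 other pathway genes called in 1 direction with both guides to PRMT5 or both to WDR77, as TMM-scaled CPM (y axis, from 0, with its own scale in each panel) by condition (x axis), with a dot for each of the 3 libraries and a bar at their mean. BMP7 is low in all 4 knockout conditions, FN1 is highest and ID1 lowest in sgPRMT5-2, and COL4A1 is lowest with the WDR77 guides.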

How the data were processed

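The deposited counts per gene, which the authors made with STAR (hg38, single-end reads of 76 nt) and htseq-count, were used unchanged. Neither the strand setting nor the annotation release is stated, and the library kit differs between labels and methods. Library sizes leave out reads outside genes (2.75% to 7.16%), those ambiguous between genes (7.09% to 7.93%) and those with several placements (9.49% to 13.1%).

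Genes were tested by limma voom from limma 3.58.1 under R 4.3.3, with TMM factors (trims of 0.3 and 0.05), a mean normalized count of at least 3, and 1 mean per condition in a fit of all 15 libraries. Benjamini-Hochberg adjustment ran over 14061 genes for each of the 9 comparisons, and a call needed an adjusted p of 0.05 or less. The planned edgeR test was replaced because the check of units could not read the tables, and edgeR and DESeq2, the authors' tool, were not used. Replicates are biological by their labels.

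The members and lists were chosen with earlier results of these data known. Other pathway genes were named if called in 1 direction with both guides to PRMT5 or both to WDR77, at most 4 per list and knockout by smallest p in the pooled comparison. Coordinates and lengths came from GENCODE 44, which matched 60463 of 60605 identifiers and all 119 listed genes. A pair of genes of the target list is not reported here, and its counts and medians leave them out. Intervals for counts of 0 cover counting error only. Replicate numbers did not pair samples, as only a number is shared.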

Additional observations from a re-analysis of the deposited data

Results flagged for a closer look

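Of the 8 members tested, 4 differed between the knockouts when the difference itself was tested by limma voom, with the spread taken from all 15 libraries. In PRMT5KO against WDR77KO the log2 difference was 0.41 for TGFB1 (adjusted p = 0.00135), -0.49 for TGFB2 (adjusted p = 0.0145), 0.26 for TGFBR2 (adjusted p = 0.00856) and 0.37 for SMAD3 (adjusted p = 0.000136), where 27.1% of all genes were called. When only the 12 knockout libraries were fitted, 1962 of 14015 genes and 2 of the 8 members were called, and TGFB2 (adjusted p = 0.0742) and TGFBR2 (adjusted p = 0.114) were not. Between guides to the same gene, TGFBR2 was higher with sgPRMT5-2 than with sgPRMT5-1 by 0.50 (adjusted p = 0.00284, limma voom). It was at 114.7 to 127.6 CPM with sgPRMT5-2, whereas sgPRMT5-1 (81.7 to 92.8) overlapped with the WDR77 guides (78.4 to 91.9). The cause of these differences was not tested.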

How the results depend on the processing

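Of 1032 values of the 8 tested members under other settings, 228 kept a call, 770 had none in either fit, 19 lost a call and 15 gained one, and 0 changed sign with a call. Without the count filter all 10 members were tested, SMAD4 and INHBA included. Then 1 was called with sgPRMT5-1 (SMAD4), where 1.47% of 30218 genes were called, and 4 with sgPRMT5-2, where 13.9% were. In PRMT5KO 3 were called (INHBA, TGFBR2 and SMAD4, with the TGFB2 call lost), against 9.67% of genes. With sgWDR77-1 3 were called (TGFB1, TGFB2 and SMAD3), against 3.52%. With only the libraries compared in each fit, 385 genes and 1 member were called with sgWDR77-1, 477 and 1 in WDR77KO, 1962 and 2 between the knockouts, 5693 and 3 with sgPRMT5-2, 2690 and 3 between the PRMT5 guides, and 17 genes between the WDR77 guides, for which library totals alone gave 219. Each count of 3 includes INHBA, which only the high sgPRMT5-2 libraries brought past the filter, so 2 of the 8 tested members were called there. The spread is then estimated from fewer samples, and the cause of the changes was not tested. Leaving out 1 library gave 116 to 341 genes with sgPRMT5-1, 3109 to 3910 with sgPRMT5-2, 677 to 1449 with sgWDR77-1, 393 to 552 with sgWDR77-2, 1918 to 3075 in PRMT5KO, 743 to 1575 in WDR77KO, 2872 to 4349 between the knockouts, 338 to 1651 between the PRMT5 guides and 45 to 505 between the WDR77 guides. The members called were then 1 to 2 with sgWDR77-1, 1 to 2 with sgWDR77-2, 1 to 2 in PRMT5KO and 4 to 5 between the knockouts. The replicate number as a block gave 3029 genes in PRMT5KO and 1062 in WDR77KO, but it does not pair samples. Correlations of residuals in 30 same-numbered pairs ran from -0.21 to 0.179, and 2 exceeded 0.1. In the 60 other pairs between conditions they ran from -0.146 to 0.301, and 5 exceeded 0.1. Scaling moved the median of all genes by at most 0.09 in log2, yet with library totals alone 1644 genes rose and 2694 fell with sgPRMT5-2 (2296 and 2065 as reported), 1072 and 2058 in PRMT5KO (1686 and 1514), and 1505 and 2163 between the knockouts (2205 and 1608). Levels per length also changed with the MANE transcript, a length chosen after seeing the data (TGFBR2 16.0 CPM per kb). The planned DESeq2 fit and the comparison of edgeR with voom were not run. SMAD4, INHBA and SMAD7 were limited by depth.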
